A study of Mus musculus with 6 samples.

Results

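The genes described are 10 transcription factors that set macrophage identity and activation state, Spi1, Cebpa, Cebpb, Maf, Irf4, Irf5, Irf8, Klf4, Pparg and Bhlhe40. They were chosen by name, with earlier results of these data known. Each was measured by 1 probe set, and they make up 10 of the 25206 probe sets of the series. The series measured RNA with Affymetrix arrays in peritoneal macrophages of Tet2-/- mice and of their wild-type littermates, all of the C57BL/6J strain. Thioglycollate, which irritates the peritoneum and draws macrophages in, had been injected 4 days earlier. Each genotype had 3 arrays, labelled biological replicates 4, 5 and 6. The cells of both genotypes were plated on culture plastic, received no cytokine or other stimulus, and gave their RNA after 10 h. The labels give neither the design of the Tet2 allele nor the age of the mice, nor do they say that each replicate is its own animal, and p-values therefore cover only the spread between these samples.

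Lineage factors act in layers. PU.1, the ETS protein that Spi1 encodes, opens enhancers across the myeloid genome together with C/EBP proteins, and factors such as MAF, IRF4, IRF5, IRF8, KLF4 and PPAR-gamma then shape the state a macrophage takes on after interferon, bacterial products, lipids or interleukin-4. TET2 is a dioxygenase that oxidises methylated cytosine in DNA, mostly where C is followed by G, and its human counterpart is often mutated in myeloid blood disease.

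Genotype labels contradicted each other for 4 of the 6 samples, and the groups here follow the sample title. The genotype characteristic, used as another grouping, would turn the sign of the difference for 9 of the 10 factors. Tet2 itself does not settle the question, since its groups overlapped on the array: it was at 3.80, 4.05 and 3.67 in Tet2-/- replicates 4, 5 and 6, against 4.35, 3.74 and 3.79 in wild-type replicates 4, 5 and 6. The deleted part of Tet2 and the position of its probes are not stated in the labels. Every direction below is that of arrays titled as Tet2-deficient. The array of Tet2-/- replicate 6 stood apart, with the narrowest interquartile range (2.99, against 3.16 to 3.33 on the other 5 arrays) and the lowest mean correlation with the other arrays (0.982, against 0.986 to 0.989). Among probe sets with a mean level above the median, 32.9% had their lowest value on that array, and values of the factors that turn sign without it are given both ways.

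Maf was the factor that separated the genotypes most clearly, and it was higher in the Tet2-/- libraries. Pparg was lower in mean, and the other 8 factors differed by -0.23 to 0.22 log2 units. No factor passed the threshold, an adjusted p of 0.05 from limma's moderated test over all 25206 probe sets (0 of 10 called, against 0% of all probe sets). At an unadjusted p under 0.05 there was 1 of 10, Maf, against 3.61% of all probe sets, and Maf was also the only factor whose groups did not overlap, against 7.41% of all probe sets. Non-overlap on the higher side was thus 1 of 10, against 3.33%, and on the lower side 0 of 10, against 4.07%. Of the 10 factors 5 were higher and 5 lower in mean in Tet2-/- cells, with a median difference of 0.03, against 0.0 over all probe sets. All 10 lay above the median level of the array, 2.81. Their median difference in absolute size was 0.20, against 0.11 over the probe sets above that level.

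**Figure D1:**
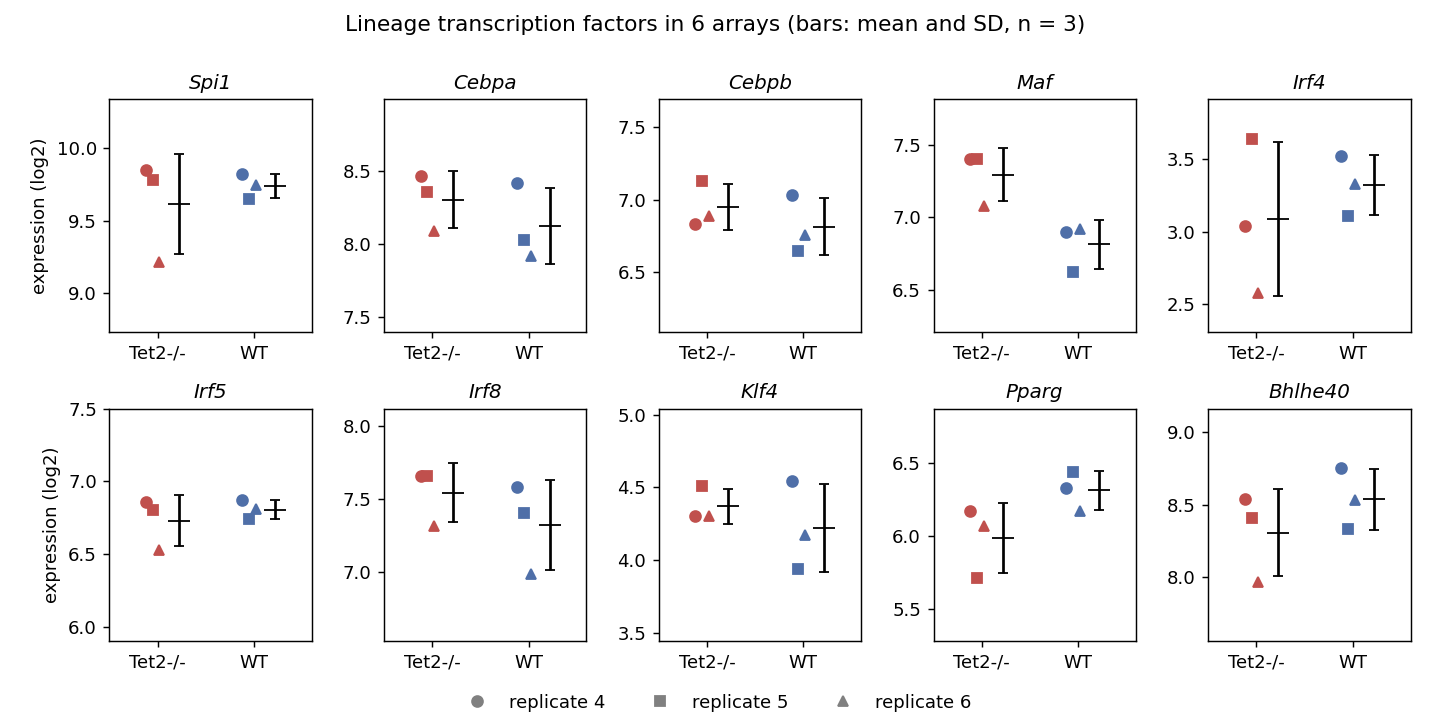
Log2 expression of the 10 factors on each array, one panel per gene, with Tet2-/- arrays in red and wild-type arrays in blue, symbols for the replicate number, and black bars for the mean and SD (n = 3 each). Each panel spans the same number of log2 units. The 3 Tet2-/- arrays lie above the 3 wild-type arrays for Maf alone, and the triangle of Tet2-/- replicate 6 is the lowest point for Spi1, Irf4, Irf5 and Bhlhe40.

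Spi1 encodes PU.1, without which macrophages do not form. Its log2 level was 9.85, 9.78 and 9.22 in Tet2-/- replicates 4, 5 and 6, against 9.82, 9.65 and 9.75 in wild-type replicates 4, 5 and 6. The groups overlapped, and Tet2-/- replicate 6 lay below every other array, while Tet2-/- replicates 4 and 5 lay beside the wild-type arrays. Spi1 differed by -0.12 (95% confidence interval from -0.54 to 0.29, limma adjusted p = 0.998), or by 0.08 without Tet2-/- replicate 6. Macrophage markers followed the same array: 7 of 8 listed genes were measured, and their mean level was 9.12, 9.26 and 8.49 in Tet2-/- replicates 4, 5 and 6, against 9.09, 8.74 and 8.78 in wild type. The part of this in the Spi1 value was not tested. In bulk RNA, fewer cells of a type and less RNA per cell cannot be told apart.

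Cebpa and Cebpb encode C/EBP-alpha and C/EBP-beta, leucine zipper proteins that work beside PU.1, the first mainly in myeloid commitment and the second in the inducible genes of mature macrophages. Cebpa was at 8.47, 8.36 and 8.09 in Tet2-/- replicates 4, 5 and 6, against 8.42, 8.03 and 7.92 in wild type. Wild-type replicate 4 was as high as the upper Tet2-/- arrays, so the groups overlapped. Cebpa differed by 0.18 (interval from -0.21 to 0.58, limma adjusted p = 0.998), which ranged from 0.08 to 0.33 when single arrays were left out. Cebpb was at 6.83, 7.13 and 6.89 in Tet2-/- cells, against 7.03, 6.65 and 6.76 in wild-type cells, again with wild-type replicate 4 among the Tet2-/- values. Its difference was 0.14 (95% confidence interval -0.21 to 0.48), and 0.05 to 0.25 with single arrays left out.

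Maf encodes c-MAF, a large leucine zipper protein that drives interleukin-10 and takes part in the identity of tissue-resident macrophages. Its log2 level was 7.40, 7.40 and 7.08 in Tet2-/- replicates 4, 5 and 6, against 6.90, 6.62 and 6.92 in wild-type replicates 4, 5 and 6. Every Tet2-/- array lay above every wild-type array, with a gap of 0.16 between the lowest Tet2-/- and the highest wild-type value. The means were 7.29 ± 0.185 in Tet2-/- and 6.81 ± 0.168 in wild-type cells (SD, n = 3 each), and differed by 0.48 ± 0.153 (SE, limma unadjusted p = 0.0122, adjusted p = 0.998). That is 1.40-fold, with a 95% confidence interval from 1.10-fold to 1.77-fold. Maf had rank 247 by p among the 25206 probe sets. The difference stayed between 0.38 and 0.59 when single arrays were left out, the unadjusted p running from 0.00287 to 0.0525 and the adjusted p from 0.255 to 1.0. It was -0.15 when samples were grouped by the genotype characteristic.

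Irf8, Irf5 and Irf4 belong to the interferon regulatory factors, which share a DNA-binding domain and differ in partners. IRF8 pairs with PU.1 and is needed for monocyte development, IRF5 carries Toll-like receptor signals to cytokine genes, and IRF4 acts in B cells, plasma cells and interleukin-4-treated macrophages. Irf8 was at 7.66, 7.66 and 7.31 in Tet2-/- replicates 4, 5 and 6, against 7.58, 7.40 and 6.98 in wild type, so the groups overlapped and wild-type replicate 6 was lowest. Irf8 differed by 0.22 (interval from -0.20 to 0.64, limma adjusted p = 0.998), and by 0.05 without wild-type replicate 6. Irf5 was the steadiest of the 10, with a range of 0.34 over the 6 arrays. It was at 6.86, 6.80 and 6.53 in Tet2-/- cells, against 6.87, 6.74 and 6.81 in wild-type cells. Of the Tet2-/- arrays, replicate 6 alone lay outside the wild-type range, and the difference of -0.08 (95% confidence interval -0.39 to 0.24) was 0.02 without it.

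Irf4 was the least steady factor, with a range of 1.06 over the arrays. It was at 3.04, 3.64 and 2.58 in Tet2-/- replicates 4, 5 and 6, against 3.52, 3.11 and 3.33 in wild type. Tet2-/- arrays held both the highest and the lowest value, so the SD was 0.531 in Tet2-/- and 0.205 in wild-type cells. Irf4 differed by -0.23 (interval from -0.80 to 0.33, limma adjusted p = 0.998). Leaving out Tet2-/- replicate 6 gave 0.02, and leaving out Tet2-/- replicate 5 gave -0.51. B cells also express Irf4, and B-cell markers were highest in Tet2-/- replicate 5, the array with the highest Irf4 value. The arrays did not otherwise follow that order. Tet2-/- replicate 4 had the next highest B-cell mean (3.70), yet its Irf4 value, 3.04, was below every wild-type array. Wild-type replicate 4 had the lowest B-cell mean (2.64) and the next highest Irf4 value, 3.52. The part of B cells in the Irf4 value was not tested.

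Promoter sequences are shown for the interferon factor genes Irf4 and Irf8 because the starts of these genes differ widely in CpG dinucleotides, the sites at which TET2 mainly acts. They run from 250 bases before to 50 bases after an annotated start, are taken from RefSeq (GRCm38.p6), read 5′ to 3′, and have each CpG in capitals. The Irf4 window (chr13:30748983-30749282, plus strand) held 11 CpG, the first Irf8 window (chr8:120736108-120736407, plus strand) held 38, and the second Irf8 window (chr8:120738389-120738688, plus strand) held 8, against a median of 7 over all 32851 promoter windows of the table.
Irf4: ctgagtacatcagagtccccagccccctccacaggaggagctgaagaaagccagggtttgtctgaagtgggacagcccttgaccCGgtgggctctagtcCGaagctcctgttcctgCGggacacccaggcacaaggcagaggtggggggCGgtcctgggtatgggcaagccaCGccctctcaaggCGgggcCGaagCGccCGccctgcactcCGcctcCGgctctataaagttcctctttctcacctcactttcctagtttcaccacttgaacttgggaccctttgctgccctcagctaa
Irf8 start 1: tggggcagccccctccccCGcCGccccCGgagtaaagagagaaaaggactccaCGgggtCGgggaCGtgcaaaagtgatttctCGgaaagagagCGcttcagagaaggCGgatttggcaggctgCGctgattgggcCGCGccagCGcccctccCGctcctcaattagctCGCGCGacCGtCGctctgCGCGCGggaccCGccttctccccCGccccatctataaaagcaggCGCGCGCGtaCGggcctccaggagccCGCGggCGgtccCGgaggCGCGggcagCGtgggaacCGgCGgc
Irf8 start 2: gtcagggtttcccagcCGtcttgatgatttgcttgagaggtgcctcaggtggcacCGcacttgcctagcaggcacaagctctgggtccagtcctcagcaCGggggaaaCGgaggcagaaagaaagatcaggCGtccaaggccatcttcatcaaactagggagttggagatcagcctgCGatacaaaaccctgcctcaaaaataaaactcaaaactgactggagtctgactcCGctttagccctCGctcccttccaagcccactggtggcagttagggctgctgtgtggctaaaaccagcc

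Klf4, Pparg and Bhlhe40 complete the set, as factors of alternative activation, lipid handling and cytokine control. Klf4, a zinc finger protein of monocytes and interleukin-4-treated macrophages, was at 4.30, 4.51 and 4.30 in Tet2-/- replicates 4, 5 and 6, against 4.54, 3.94 and 4.17 in wild type. The Tet2-/- values lay inside the wild-type range, and Klf4 differed by 0.15 (interval from -0.24 to 0.55, limma adjusted p = 0.998), or by 0.015 without wild-type replicate 5. Bhlhe40, a basic helix-loop-helix repressor that holds down interleukin-10, was at 8.54, 8.41 and 7.97 in Tet2-/- cells, against 8.75, 8.33 and 8.53 in wild-type cells. Tet2-/- replicate 6 was again the lowest array, and the difference of -0.23 (95% confidence interval -0.65 to 0.19) was -0.06 without it.

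Pparg encodes PPAR-gamma, a nuclear receptor for fatty acid ligands that pairs with RXR. Its log2 level was 6.17, 5.71 and 6.07 in Tet2-/- replicates 4, 5 and 6, against 6.33, 6.44 and 6.17 in wild type. No Tet2-/- array exceeded any wild-type array, and the groups met at 6.17, the value of Tet2-/- replicate 4 and wild-type replicate 6. The means were 5.98 ± 0.242 in Tet2-/- and 6.31 ± 0.136 in wild-type cells (SD, n = 3 each), and differed by -0.33 ± 0.160 (SE, limma unadjusted p = 0.0697, adjusted p = 0.998). That is 0.796-fold, with a 95% confidence interval from 0.619-fold to 1.02-fold. The difference was negative with every array left out in turn, from -0.42 to -0.19, and under the genotype characteristic, -0.08, which makes Pparg the only factor of the 10 that kept its sign under both labels.

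Pparg has several annotated starts, which its single probe set does not tell apart. Their sequences are shown because they differ widely in CpG content. The first window (chr6:115360894-115361193, plus strand) held 44 CpG and 80.3% G and C, the second (chr6:115362099-115362398, plus strand) held 13 CpG and 62.7%, and the third (chr6:115421816-115422115, plus strand) held 2 CpG and 40.3%. Of all promoter windows in the table, 97.8% held fewer CpG than the first and 14.1% fewer than the third.
Pparg start 1: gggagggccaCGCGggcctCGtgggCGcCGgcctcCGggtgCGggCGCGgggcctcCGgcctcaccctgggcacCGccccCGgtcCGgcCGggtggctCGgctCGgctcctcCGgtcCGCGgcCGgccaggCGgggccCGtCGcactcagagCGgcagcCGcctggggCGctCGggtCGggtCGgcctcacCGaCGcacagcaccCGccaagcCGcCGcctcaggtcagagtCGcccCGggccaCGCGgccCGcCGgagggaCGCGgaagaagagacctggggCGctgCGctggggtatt
Pparg start 2: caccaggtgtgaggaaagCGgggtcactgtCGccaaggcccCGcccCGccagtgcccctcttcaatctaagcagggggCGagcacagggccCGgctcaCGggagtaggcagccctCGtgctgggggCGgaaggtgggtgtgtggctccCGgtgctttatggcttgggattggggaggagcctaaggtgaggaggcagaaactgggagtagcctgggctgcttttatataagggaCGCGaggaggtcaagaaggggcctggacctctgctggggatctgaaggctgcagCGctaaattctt
Pparg start 3: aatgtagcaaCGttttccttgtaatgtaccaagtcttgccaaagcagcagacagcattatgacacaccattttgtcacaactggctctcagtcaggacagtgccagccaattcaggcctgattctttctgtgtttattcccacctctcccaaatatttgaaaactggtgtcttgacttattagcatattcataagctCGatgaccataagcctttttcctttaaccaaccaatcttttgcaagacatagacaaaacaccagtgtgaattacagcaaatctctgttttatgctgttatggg

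RefSeq windows were found for 7 of the 10 factors, 10 windows in all, and 9 of these held more CpG than the median window. Cebpb held the most, 50, followed by Pparg's first start, Klf4 with 40, Irf8's first start, Irf5 with 35 and Cebpa with 29. Short motifs were searched on both strands after the levels had been seen. The PU.1-type core GAGGAA was in 2 of 10 windows, those of Irf4 and of Pparg's second start, against 28.3% of all windows. The E-box CACGTG, a sequence that BHLHE40 can bind, was in 1 of 10, that of Klf4, against 7.15%. The box GGGCGG, bound by SP and KLF proteins and itself holding a CpG, was in 7 of 10, against 35.7%. The TATA motif TATAAA was in 5 of 10, against 13.6%. No DNA methylation or binding was measured in these samples.

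**Figure D2:**
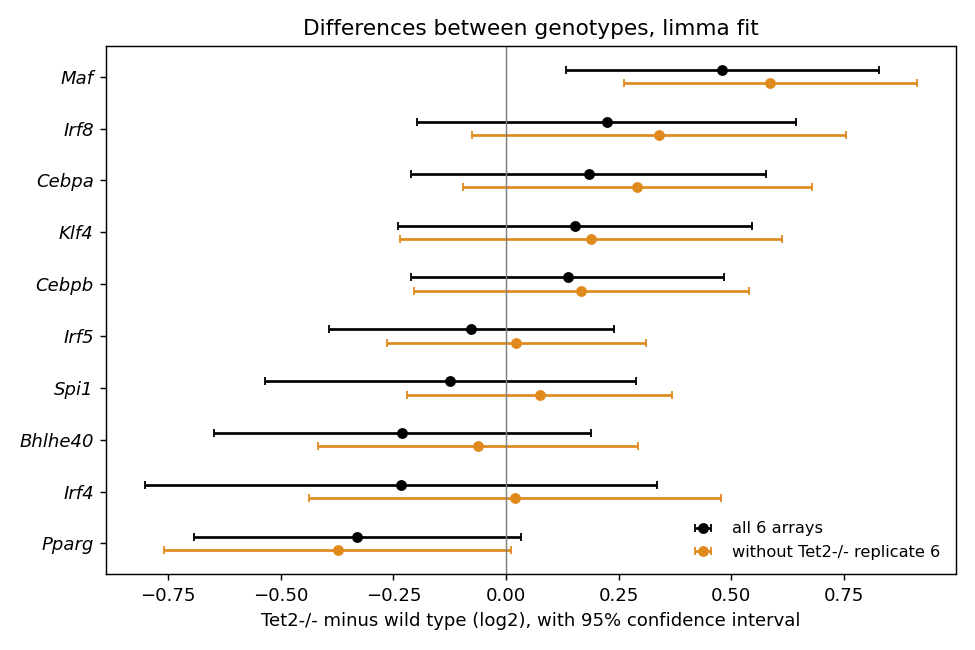
Tet2-/- minus wild-type difference (log2, horizontal axis) of the 10 factors, with 95% confidence intervals of the limma fit, from all 6 arrays (black) and without Tet2-/- replicate 6 (orange). Maf alone has intervals that lie wholly above 0, and Spi1, Irf4 and Irf5 change sign without that array.

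Without Tet2-/- replicate 6, 8 factors were higher and 2 lower in mean, and their median difference was 0.12, against -0.03 over all probe sets. Maf alone had an unadjusted p under 0.05 in that fit (1 of 10, against 9.87% of all probe sets), and 0 of 10 passed the adjusted threshold, which 0.0754% of all probe sets passed. Of the 10 factors, 4 had their lowest value on the array of Tet2-/- replicate 6, 3 on wild-type replicate 5, 2 on wild-type replicate 6 and 1 on Tet2-/- replicate 5. In the fit of all 6 arrays no factor's 95% confidence bound lay further than 0.83 log2 units from 0, whereas with single arrays left out the bounds reached 0.96 for Maf and -1.02 for Irf4.

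Likeness of pattern was measured for the 3 factors with the largest differences, Maf, Pparg and Irf4, as the root mean square distance between values on the 6 arrays after each gene's own mean was taken away. The genes nearest to Maf were D030028A08Rik (0.0471 log2 units), Fam126b (0.0704) and Zfp955a (0.0706), with genotype differences of 0.46, 0.46 and 0.47. Nearest to Pparg were Wsb2 (0.0464), Sbk2 (0.0471) and Gm2479 (0.0511), with differences of -0.36, -0.30 and -0.35. Nearest to Irf4 were Mir3109 (0.0923), Rictor (0.0945) and Snx19 (0.0972), which were likewise highest in Tet2-/- replicate 5 and lowest in Tet2-/- replicate 6.

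Family relatives of the factors showed no member past the adjusted threshold. Of 5 other large and small MAF genes measured, 2 were higher and 3 lower (median -0.15). Mafa differed by -0.28 and the retinal factor Nrl by 0.21. Nrl was dim, at 2.07 to 2.81 over the arrays, and highest in Tet2-/- replicate 6. Other ETS genes were higher for 9 of 10 (median 0.13, or 0.36 with 10 of 10 higher without Tet2-/- replicate 6, but 0.03 with 5 of 10 higher without Tet2-/- replicate 5 and 0.055 with 6 of 10 higher without wild-type replicate 5), led by Spib, the B-cell relative of Spi1, at 0.39, and Ets1 at 0.30. Spib was dim, at 1.49 to 2.53 over the arrays, and differed by 0.17 without Tet2-/- replicate 5, its highest array. Other C/EBP genes split 2 and 2 (median -0.04), with the stress factor Ddit3 at -0.23 and Cebpg at -0.11. Other interferon factors were higher for 2 and lower for 3 of 5 (median -0.02, or 0.10 with 5 of 5 higher without Tet2-/- replicate 6), with Irf1 at 0.33 (95% confidence interval -0.0028 to 0.67) and Irf9 at -0.12. Other KLF genes were higher for 3 and lower for 4 of 7 (median -0.05, or 0.08 without that array), with Klf2 at 0.36 and Klf7 at -0.30. With all arrays, 0 of the 31 genes of these 5 families had an unadjusted p under 0.05, against 3.61% of all probe sets. Without Tet2-/- replicate 6 the count was 10 of 31, against 9.87% of all probe sets, with 4 ETS, 2 interferon factor, 2 KLF, 1 MAF and 1 C/EBP genes. Without Tet2-/- replicate 5 it was 1 of 31, a KLF gene.

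Other nuclear receptors lay on the same side as Pparg for 8 of 9 measured genes (median -0.10). Among them were the RXR partner Rxra at -0.20 and the oxysterol receptor Nr1h3 at -0.22. Nr1h3 is also counted among the PPAR-gamma targets, so those lists are not separate observations. Without Tet2-/- replicate 6, 5 of 9 nuclear receptors were lower (median -0.03). All 8 measured relatives of Bhlhe40 and of the MiT factors were lower in mean (median -0.08), and 5 of 8 without that array (median -0.03). Tfec, a MiT factor of macrophages, was at 5.26, 5.10 and 5.51 in Tet2-/- replicates 4, 5 and 6, against 5.54, 5.93 and 5.91 in wild type, without overlap. Its difference was -0.50 (limma unadjusted p = 0.0146, adjusted p = 0.998), whereas Max, the next by p, differed by -0.16. When either replicate 5 array or the array of wild-type replicate 6 was left out, 0 of the 8 had an unadjusted p under 0.05. Among 14 other myeloid and macrophage factors 7 were higher, 6 lower and 1 equal in mean (median 0.02), but 2 were higher and 12 lower without wild-type replicate 5 (median -0.06), and 5 higher and 9 lower without Tet2-/- replicate 4 or 5. Egr2, a zinc finger factor of alternatively activated macrophages, was at 7.35, 6.74 and 6.82 in Tet2-/- cells, against 7.82, 7.61 and 8.06 in wild-type cells. Its groups did not overlap, and it differed by -0.86 ± 0.195 (SE, limma unadjusted p = 0.00176, adjusted p = 0.964). Gata6, the factor of resident peritoneal macrophages, differed by 0.35.

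**Figure D3:**
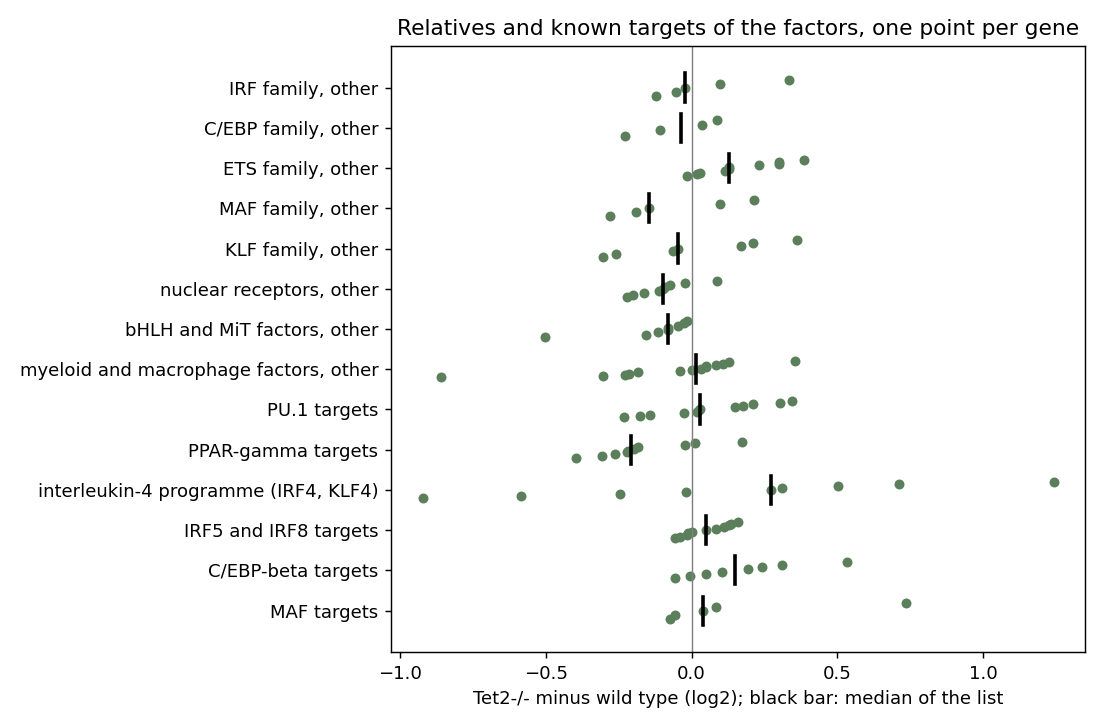
Tet2-/- minus wild-type difference (log2, horizontal axis) of each measured gene in 14 lists of relatives and known targets of the factors, with a black bar at each list's median. PPAR-gamma targets lie mostly left of 0 (median -0.21), and the interleukin-4 programme is the widest list, from -0.92 to 1.24.

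Known targets were set beside each factor. Of 10 measured PPAR-gamma targets 8 were lower and 2 higher in Tet2-/- cells (median -0.21, against 0.0 over all probe sets). Lpl, the lipoprotein lipase, was at 10.59, 10.36 and 10.35 in Tet2-/- replicates 4, 5 and 6, against 10.71, 10.75 and 10.76 in wild type, a difference of -0.31 (limma unadjusted p = 0.0433, adjusted p = 0.998). Cd36, a receptor for oxidised lipoprotein picked out after its values were seen, was likewise below every wild-type array on each Tet2-/- array, with a difference of -0.22. The sterol exporter Abcg1 differed by -0.40 with overlapping groups. Lpl was thus the only gene of this list at an unadjusted p under 0.05 (1 of 10, against 1.9% of all probe sets on the lower side), a count that ran from 0 to 3 with single arrays left out. The list's median was -0.18 without Tet2-/- replicate 6 (7 of 10 lower) and 0.045 under the genotype characteristic.

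Genes of the interleukin-4 programme, which IRF4 and KLF4 serve, lay on both sides. Of its 9 genes 5 were higher and 4 lower (median 0.27), with 2 on each side at an unadjusted p under 0.05, against 1.71% of all probe sets on the higher and 1.9% on the lower side. The mannose receptor Mrc1 was at 6.41, 6.30 and 6.58 in Tet2-/- replicates 4, 5 and 6, against 6.99, 7.17 and 6.89 in wild type, a difference of -0.59 (limma adjusted p = 0.998). The lectin Clec10a was at 2.39, 3.08 and 2.45 in Tet2-/- cells, against 3.33, 3.44 and 3.92 in wild-type cells, a difference of -0.92. For both lectins the groups did not overlap. On the higher side were the secreted protein Retnla at 1.24, without overlap, and the ligand Pdcd1lg2 at 0.50, with overlap, both named after their values were seen. Klf4 and Irf4 themselves differed by 0.15 and -0.23.

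Targets of PU.1 were spread around 0, with 8 of 12 measured genes higher and 4 lower (median 0.03), Csf3r, the receptor of granulocyte colony-stimulating factor, at 0.30 and the Fc receptor Fcgr1 at -0.23. Like Spi1, these targets were lowest on the array of Tet2-/- replicate 6: their mean level there was 8.37, against 9.08 and 9.04 in Tet2-/- replicates 4 and 5 and 8.65 to 8.94 in wild type. Of these 12 targets, 5 (Cd14, Cd68, Csf1r, Fcgr1 and Itgam) are also among the 7 macrophage markers given with Spi1, so the lists are not separate observations. Without that array 11 of 12 were higher (median 0.25), and without Tet2-/- replicate 5 there were 5 higher and 7 lower (median -0.04). C/EBP-beta targets were higher for 6 of 8 genes (median 0.15), with the protease inhibitor Serpinb2 at 0.53 and the arginase Arg1 at 0.31. Arg1 is also counted in the interleukin-4 programme, Il6 among targets of IRF5 and IRF8, and Il10 among genes tied to MAF. Targets of IRF5 and IRF8 differed by -0.06 to 0.16, with 6 of 11 higher, 4 lower and 1 equal in mean (median 0.05). Il18 at 0.16 and Tlr9 at 0.14 were their genes with the smallest p. Only 5 of the 11 lay above the median level of the array, 2.81. The rest, such as Il6 (1.57 to 2.09) and Il12b (1.79 to 2.01), were dim, where a difference could hardly show. Of 5 genes tied to MAF, 3 were higher and 2 lower (median 0.04, but -0.05 when Tet2-/- replicate 5 was left out and -0.035 when wild-type replicate 5 was). Cd5l, a secreted scavenger protein, was at 8.17, 8.18 and 7.31 in Tet2-/- cells, against 7.17, 7.01 and 7.27 in wild-type cells, a difference of 0.74 (limma unadjusted p = 0.0115, adjusted p = 0.998), whereas the complement gene C1qc differed by 0.08. Cd5l is also 1 of the 8 resident macrophage markers whose levels are set beside Maf. With all arrays, Cd5l alone had an unadjusted p under 0.05 in these 4 lists of 12, 8, 11 and 5 genes, against 3.61% of all probe sets. Without Tet2-/- replicate 6 there were also 4 PU.1 targets, 2 C/EBP-beta targets and 1 target of IRF5 and IRF8, against 9.87% of all probe sets, and without wild-type replicate 6 there was 1 C/EBP-beta target.

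Like Maf, markers of resident macrophages, monocytes and B cells were higher in mean in Tet2-/- cells. All 8 markers of the resident large peritoneal macrophage were higher in mean in Tet2-/- cells, with a list mean level of 6.35, 6.72 and 4.99 in Tet2-/- replicates 4, 5 and 6, against 5.49, 4.89 and 4.94 in wild type. All 4 measured monocyte markers were higher, with a mean level of 5.40, 6.14 and 4.75 in Tet2-/- cells, against 4.49, 4.05 and 4.16 in wild-type cells. All 6 measured B-cell markers were higher, with a mean level of 3.70, 4.58 and 2.93 in Tet2-/- cells, against 2.64, 2.74 and 2.96 in wild-type cells. In Tet2-/- replicate 6, Maf (7.08) lay above every wild-type array, as did the monocyte mean. The resident mean there was below wild-type replicate 4, and the B-cell mean was below wild-type replicate 6. The part of resident macrophages, monocytes or B cells in the Maf value was not tested.

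**Figure D4:**
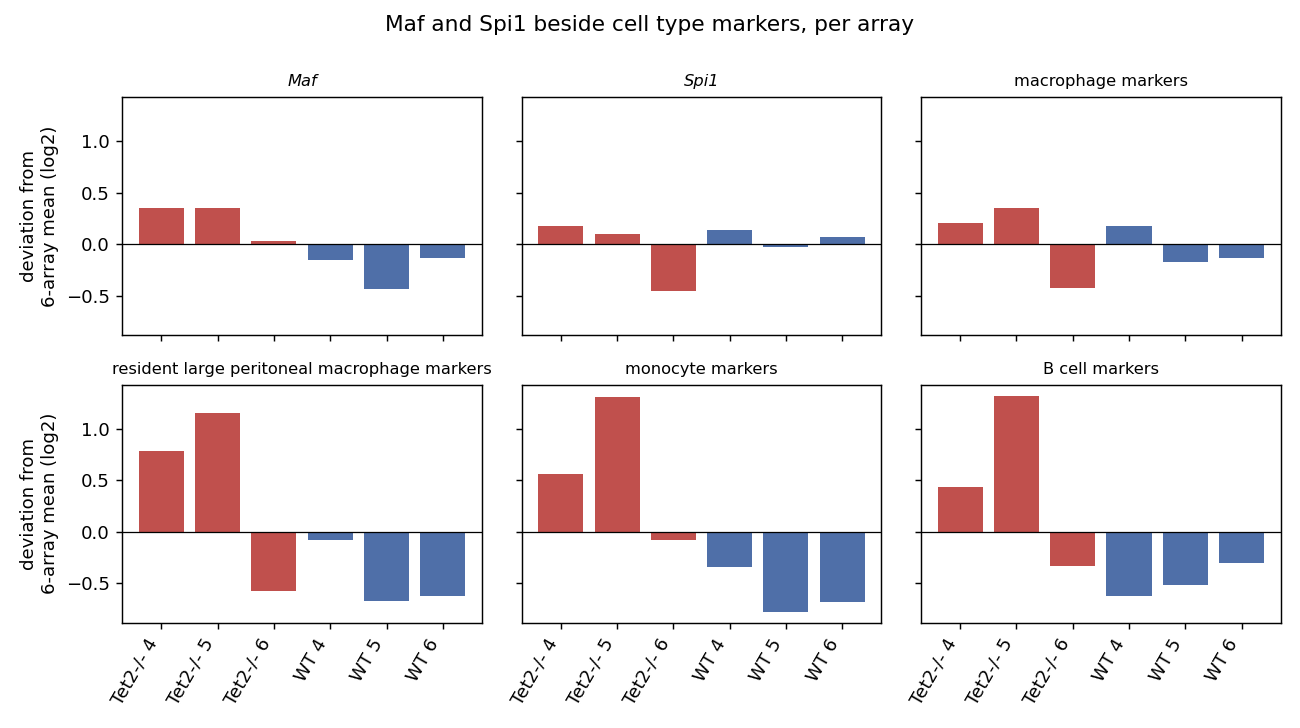
Deviation from the 6-array mean (log2, vertical axis) on each array, Tet2-/- in red and wild type in blue, for Maf, for Spi1 and for the mean of 4 marker lists. Maf and the resident, monocyte and B-cell lists are highest in Tet2-/- replicates 4 and 5, and Spi1 and the macrophage list are lowest in Tet2-/- replicate 6.

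Macrophage markers were bright on all 6 arrays, with list means from 8.49 to 9.26, and 4 of the 7 measured were higher and 3 lower in Tet2-/- cells. Markers of T cells, natural killer cells, eosinophils, mast cells and dendritic cells had list means of 1.88 to 2.44 on every array, near the low end of the scale, and their median differences lay between -0.07 and 0.08. Single genes departed from these means. Siglecf of the eosinophil list was at 4.65, 3.58 and 4.12 in Tet2-/- replicates 4, 5 and 6, against 5.37, 5.58 and 5.02 in wild type, without overlap (difference -1.21, limma unadjusted p = 0.00134, adjusted p = 0.879). Thy1 of the T-cell list was higher without overlap, by 0.35 (limma unadjusted p = 0.0233, adjusted p = 0.998), and both were picked out after their values were seen. Neutrophil markers averaged 2.71 to 3.26 (median difference 0.08) and mesothelial markers 3.04 to 3.38 (0.05). The neutrophil mean was highest in Tet2-/- replicate 6, and so were the natural killer (2.30) and dendritic (2.37) means. That array also had the highest median over all probe sets (2.930, against 2.765 to 2.820 on the others). S100a8 was far brighter than the rest of the neutrophil list. It was at 5.79, 6.42 and 7.19 in Tet2-/- replicates 4, 5 and 6, against 6.22, 6.43 and 6.23 in wild type. Fibroblast markers were clearly present, with list means of 6.56, 6.20 and 6.25 in Tet2-/- replicates 4, 5 and 6, against 5.96, 5.92 and 6.85 in wild type (median difference 0.07). Their highest array, wild-type replicate 6, was also the lowest for Cebpa and Irf8. Their next highest, Tet2-/- replicate 4, was the highest for Cebpa (8.47) and shared the highest Irf8 value (7.66) with Tet2-/- replicate 5. The part of fibroblasts in those values was not tested.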

How the data were processed

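RNA of 6 samples was measured on Affymetrix arrays. Per the submitters' processing notes, the authors summarised probes with RMA (background correction, quantile normalization, probe summary) in affy 1.36.1. The deposited values were read as log2 from their range and that method, and whether the 6 arrays were normalized together is not given in the sources used here. RMA compresses differences near background, so folds of dim genes such as Irf4 may be understated. The platform annotation named 23185 probe sets and left 2021 unnamed, and symbols were checked by gene identifier against the RefSeq table of GRCm38.p6.

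All 25206 probe sets were fitted with limma 3.58.1 in R 4.3.3 (lmFit, eBayes, two-sided, no covariate) and p-values adjusted by the Benjamini-Hochberg method at a threshold of 0.05. The script was tested on simulated data. The number of arrays, 3 per genotype, limits the precision. The factors, the 14 family and target lists and the 12 marker lists were chosen with earlier results of these data known, and described by counts and medians. Named genes were all factors, up to 2 per family or target list with the smallest p, and the 3 nearest in pattern to each of 3 factors. Other settings were grouping by the genotype characteristic, array weights, blocking on replicate number, eBayes with trended robust variances, 2 further scalings, a filter on dim probe sets, other thresholds and leaving out each array.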

Additional observations from a re-analysis of the deposited data

How the results depend on the processing

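No paired effect is implied by the labels, which share replicate numbers only: deviations of same-numbered arrays correlated at 0.15, -0.22 and 0.11, 2 of 6 arrays correlated best with their own number, and with the replicate number as a block 0 of 25206 probe sets passed and Maf differed by 0.48 (limma unadjusted p = 0.0215). All 10 factors kept their sign, none past the adjusted threshold, with that block, trended robust variances, median-centred arrays, further quantile normalization and the filter on dim probe sets. Under the genotype characteristic, medians of other interferon factors, other C/EBP genes and PU.1 targets turned sign, to 0.073, 0.023 and -0.0083. Medians of the resident and monocyte markers set beside Maf went from 0.86 and 1.245 to -0.075 and -0.25. The B-cell marker median went from 1.01 to 0.23. Grouping by the genotype characteristic put Spi1 0.10, Cebpa -0.22, Cebpb -0.07, Maf -0.15, Irf4 0.31, Irf5 0.03, Irf8 -0.17, Klf4 -0.17 and Bhlhe40 0.0033, with 0 factors at an unadjusted p under 0.05. It also put Ddit3 0.01, Cebpg 0.037, Ets1 -0.16, Irf9 0.05, Klf2 -0.067, Klf7 0.50, Nrl -0.28, Mafa 0.13, Cd5l -0.063, Lpl 0.073, Fcgr1 0.16, Csf3r -0.10, Tfec 0.21, Max 0.083, Mrc1 0.13, Clec10a 0.76, Egr2 0.14, Gata6 -0.087, Rxra 0.073, Nr1h3 0.18, D030028A08Rik -0.13, Fam126b -0.17, Zfp955a -0.17, Mir3109 0.20, Rictor 0.19, Snx19 0.21, Retnla -0.24, Pdcd1lg2 -0.26 and Cd36 0.083, and the medians of other nuclear receptors, bHLH and MiT factors, PPAR-gamma targets, the interleukin-4 programme and C/EBP-beta targets at 0.14, 0.032, 0.045, 0.023 and -0.028. Array weights put Spi1 0.025, Irf5 0.0004, Mir3109 0.0018 and Rictor 0.038, and 2 probe sets past the threshold. With these weights the medians of IRF5 and IRF8 targets and of C/EBP-beta targets were 0.008 and 0.28. Medians of other interferon, KLF and myeloid factors turned sign, to 0.11, 0.072 and -0.04. PU.1 targets were then higher for 11 of 12, with a median of 0.22. The filter put the IRF5 and IRF8 median at 0.13, and median-centring gave 2 factors an unadjusted p under 0.05, Maf and Pparg. At unadjusted p under 0.05 and 0.01 there were 910 and 202 probe sets. Leaving out single arrays gave 0 to 19 probe sets past the threshold (the 19 came without Tet2-/- replicate 6, and there was 1 without wild-type replicate 4), and 0 to 2 factors at an unadjusted p under 0.05 (2 without Tet2-/- replicate 4 or 5, 0 without wild-type replicate 5). It also gave ranges of -0.24 to 0.075 for Spi1, -0.51 to 0.02 for Irf4, -0.14 to 0.023 for Irf5, -0.25 to 0.022 for Irf9, -0.33 to 0.092 for Mir3109, -0.33 to 0.14 for Rictor, -0.33 to 0.09 for Snx19 and -0.23 to 0.075 for Tet2. For list medians the ranges were -0.13 to -0.0067 (MAF family), -0.14 to -0.028 (bHLH and MiT), 0.11 to 0.37 (interleukin-4 programme), -0.027 to 0.065 (IRF5 and IRF8 targets) and 0.084 to 0.31 (C/EBP-beta targets). The cause of these changes was not tested. Signal over background could not be assessed, since scanner files were not used here.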
